A study of Mus musculus with 6 samples.

Results

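The enzymes that write, maintain and remove DNA methylation were followed in RNA of endothelial cells of the mouse lung, which form the inner wall of vessels. The members are 10 named genes, each looked up by its symbol among the 24520 genes of the deposited tables, and all 10 were found: Dnmt3a, Dnmt3b, Dnmt1, Uhrf1, Uhrf2, Hells, Tet1, Tet2, Tet3 and Tdg. The cells were isolated from lung by fluorescence-activated cell sorting, and RNA was amplified to cDNA and sequenced in 3 libraries labelled knockout (KO) for Dnmt3a and 3 libraries labelled wild type (WT). The allele, the driver of any recombinase, the sort gate and the age of the mice were not stated in the sources used here. No label says whether each library is a different mouse, so the p-values below reflect how much these samples vary, and that variation may be technical. Values per library are listed in the order of replicates 1, 2 and 3, and KO replicate 2, for example, is the library so labelled.

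DNA methylation in mammals sits mainly on cytosines that precede a guanine (CpG sites). Dnmt3a and Dnmt3b place it on unmethylated DNA, Dnmt1 copies it to the new strand after replication, Uhrf1 recruits Dnmt1 to sites methylated on the old strand alone, and Hells is a chromatin remodeller that methylation of repeats depends on. Tet1, Tet2 and Tet3 oxidise methylcytosine, and Tdg cuts the most oxidised forms out so that base excision repair can put back plain cytosine.

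Libraries held 28136194 to 39999172 estimated counts. Endothelial transcripts were abundant under both labels, with 9 markers summing to 13300 to 15800 CPM (a count scaled to library size) in libraries labelled KO and 13400 to 16800 CPM in those labelled WT. Library sizes for CPM were adjusted with edgeR's TMM factors. Xist and Y-linked genes marked replicate 1 as female and replicates 2 and 3 as male under each label. Replicate 1 of a label therefore did not come from the same mouse as its replicates 2 and 3. Sex cannot tell whether replicates 2 and 3 came from different mice. Alveolar epithelial type 2 markers varied within each label, their 8 genes summing to 759 to 3530 CPM in libraries labelled KO and 336 to 9080 CPM in those labelled WT. The 8 macrophage markers summed to 31.2 to 188 CPM in libraries labelled KO and 22.4 to 433 CPM in those labelled WT, led by Lyz2, which type 2 cells also express, at 25.4 to 182 CPM labelled KO and 12.5 to 423 CPM labelled WT. Cd68 lay at 4.16 to 4.63 CPM labelled KO and 3.39 to 5.59 CPM labelled WT, and Marco and Csf1r had no count. The 9 lymphocyte markers summed to 3.24 to 11.7 CPM labelled KO and 6.58 to 8.57 CPM labelled WT, and the 7 pericyte and smooth muscle markers to 115 to 551 CPM labelled KO and 104 to 454 CPM labelled WT. No gene of these lists passed by edgeR.

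The promoter windows below show the start regions of the members whose values carry the results. They run from 250 bases before to 50 bases after a RefSeq transcript start on GRCm38.p6 (mm10), and all 10 members matched at least 1 window. The first pair belongs to Dnmt3a, which has CpG-rich upstream starts, of which the richer is shown, and an internal start. Capitals mark CG dinucleotides, the substrate of the enzymes themselves.
Dnmt3a upstream start, chr12:3806910-3807209, plus strand: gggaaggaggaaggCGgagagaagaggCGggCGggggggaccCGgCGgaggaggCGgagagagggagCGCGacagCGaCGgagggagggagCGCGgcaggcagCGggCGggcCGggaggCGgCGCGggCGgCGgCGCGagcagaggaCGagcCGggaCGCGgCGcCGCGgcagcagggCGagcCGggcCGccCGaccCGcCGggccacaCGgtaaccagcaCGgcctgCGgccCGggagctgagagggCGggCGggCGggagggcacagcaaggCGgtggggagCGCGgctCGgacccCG
Dnmt3a internal start, chr12:3891494-3891793, plus strand: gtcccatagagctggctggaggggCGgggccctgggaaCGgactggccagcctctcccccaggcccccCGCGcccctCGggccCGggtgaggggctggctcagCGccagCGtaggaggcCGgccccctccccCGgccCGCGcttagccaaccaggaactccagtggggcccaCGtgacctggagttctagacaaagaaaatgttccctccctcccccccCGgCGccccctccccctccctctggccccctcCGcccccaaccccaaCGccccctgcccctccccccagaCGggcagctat
The upstream window holds 47 CG dinucleotides, more than 98.6% of the 32851 RefSeq promoter windows. The internal window holds 18, more than 70.3% of them. The median window holds 7.

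The next 3 windows belong to the members that act around replication. Capitals mark matches to a motif of E2F factors, which drive genes of the DNA synthesis phase, searched on both strands as TTTCCCGC, TTTCGCGC, TTTGCCGC and TTTGGCGC.
Dnmt1, chr9:20952574-20952873, minus strand: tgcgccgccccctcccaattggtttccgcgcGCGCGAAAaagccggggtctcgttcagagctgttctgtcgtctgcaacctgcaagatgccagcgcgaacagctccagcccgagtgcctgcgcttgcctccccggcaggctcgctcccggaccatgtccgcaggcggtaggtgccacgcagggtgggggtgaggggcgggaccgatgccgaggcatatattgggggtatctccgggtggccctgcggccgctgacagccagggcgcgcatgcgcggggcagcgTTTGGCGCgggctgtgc
Uhrf1, chr17:56304063-56304362, plus strand: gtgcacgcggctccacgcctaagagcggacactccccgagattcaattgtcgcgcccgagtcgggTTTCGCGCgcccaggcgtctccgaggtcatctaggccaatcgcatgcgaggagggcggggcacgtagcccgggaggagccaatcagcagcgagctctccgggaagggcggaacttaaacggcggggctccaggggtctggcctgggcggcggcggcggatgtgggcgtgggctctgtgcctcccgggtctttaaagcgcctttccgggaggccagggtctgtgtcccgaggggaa
Hells, chr19:38930740-38931039, plus strand: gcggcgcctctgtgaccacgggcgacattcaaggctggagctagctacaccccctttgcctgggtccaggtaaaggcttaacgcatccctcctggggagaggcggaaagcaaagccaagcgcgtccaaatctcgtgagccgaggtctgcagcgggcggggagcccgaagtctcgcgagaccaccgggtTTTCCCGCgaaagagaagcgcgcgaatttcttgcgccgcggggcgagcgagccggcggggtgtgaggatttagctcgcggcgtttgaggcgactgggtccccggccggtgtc
The Dnmt1 window has 2 matches, which begin at -219 and 33 with the start base counted as 0. The Uhrf1 match begins at -185 and the Hells match at -62. Each position is counted from the start of the window shown. Dnmt1 and Uhrf1 also have RefSeq starts upstream of these, and the windows of those starts hold no match. Of the 15 windows of the members, these 3 hold a match, against 2.26% of all windows. Each word searched contains CG, and these 3 windows hold 33 or 34 CG dinucleotides where the median window holds 7. The share of all windows was not matched for CG content. The other 7 members have no match in these windows. A match is a run of letters, and factor binding was not measured.

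Dnmt3a, the targeted gene, was examined first because it checks the labels. On mm10 it spans chromosome 12 from 3806007 to 3914443 (plus strand, ENSMUSG00000020661). Its estimated counts were 5090, 4878 and 4750 in the libraries labelled KO and 1235, 1079 and 1198 in those labelled WT. All 3 libraries labelled KO lay above all 3 labelled WT, the reverse of what the labels would give for a loss of transcript. Its level was 165 ± 6.45 CPM in libraries labelled KO and 35.3 ± 3.10 CPM in those labelled WT (mean ± SD, n = 3 each), 4.67-fold. The fitted log2 fold change was 2.22 (SE 0.11, 95% interval 1.96 to 2.48, edgeR adjusted p = 0.00157). Among the male libraries alone, 2 a label, the fitted value was 2.22 and did not pass (edgeR adjusted p = 0.168). With the replicate number as a block, the fitted value was 2.23 and did not pass either (edgeR adjusted p = 0.0679). Because summed Dnmt3a RNA was higher and not lower in libraries labelled KO, each group is named here by its label alone. A sum over the whole gene need not fall where only some exons are removed, and exons were not analysed here.

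Dnmt3a was the only member called, 1 of 10, where 0.0341% of the 14667 tested genes were called in either direction, 0.0205% higher and 0.0136% lower in libraries labelled KO. It stood first of all tested genes by p, and 0.716% of them had a fold change as large. DESeq2, an alternative test, also called Dnmt3a alone among the members, where it called 2.16% of all genes. The overlapping antisense gene Dnmt3aos had 10 to 26 counts per library, and antisense reads within the Dnmt3a sum were not told apart. The 9 fibroblast markers summed to 301 to 443 CPM in libraries labelled KO and 145 to 204 CPM in those labelled WT. Of them, 8 had a log2 fold change above 0, 6 did not overlap in CPM, where 10.9% of all tested genes lay higher without overlap, and Col3a1 alone passed by edgeR. Dcn, which marks fibroblasts, lay at 2.64, 2.58 and 2.47 CPM in the libraries labelled KO and at 0.122, 0.135 and 0.212 CPM in those labelled WT. It missed the threshold by edgeR (edgeR adjusted p = 0.0819) and was called by DESeq2 (DESeq2 adjusted p = 1.12e-07). DESeq2 called 5 of the 9 fibroblast markers, Col1a1, Col3a1, Dcn, Inmt and Npnt, against 2.16% of all genes. The part of fibroblast RNA in the Dnmt3a difference was not tested.

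**Figure D1:**
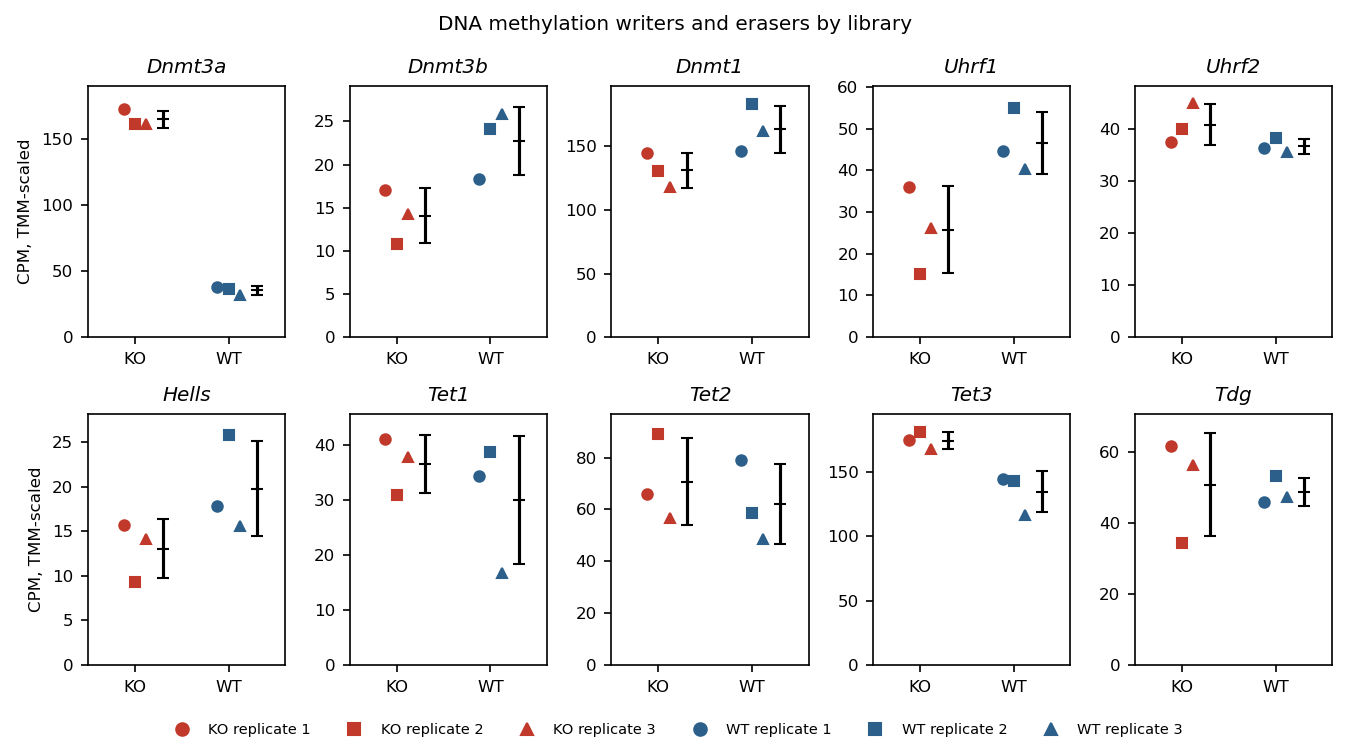
TMM-scaled CPM of the 10 members in each library, libraries labelled KO on the left of each panel and WT on the right, with the mean and SD (n = 3) as black bars. Dnmt3a at 161 to 172 CPM labelled KO stands clear of 31.8 to 37.6 CPM labelled WT, and Tet3 also lies higher without overlap, while the points labelled KO lie below those labelled WT for Dnmt3b, Dnmt1 and Uhrf1 and overlap them for the other members.

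The second reading of Dnmt3a was the length of the transcripts its reads were assigned to. An estimated count divided by its TPM (a level scaled by transcript length and library) gives a mean transcript length for a gene in each library, once placed on a line through genes with 1 annotated transcript. For Dnmt3a this length was 9359, 9513 and 9280 bases in the libraries labelled KO and 9604, 9822 and 9516 bases in those labelled WT. These values lie near the longest coding transcripts of GENCODE M21, Dnmt3a-201 with 9685 bases and Dnmt3a-218 with 8737, and far from the shortest, with 467. The value of WT replicate 2 exceeds the longest, and the annotation the authors quantified against is not stated. The lengths did not overlap between labels, and the difference was -0.04 on the log2 scale (exact two-sided permutation test p = 0.1, the smallest that 3 against 3 allows). Over 11154 genes with at least 50 counts per library, 8.29% were shorter without overlap in libraries labelled KO. By these values the higher Dnmt3a level was assigned to transcripts of nearly the same mean length under both labels. The log2 difference is relative to the median gene. It was -0.0978 with the ratio of summed counts to summed TPM as the scale.

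Dnmt3b, the other de novo enzyme (ENSMUSG00000027478, chromosome 2, 153649450 to 153687730, plus strand), had 17.1, 10.8 and 14.3 CPM in the libraries labelled KO and 18.3, 24.1 and 25.8 CPM in those labelled WT. The labels did not overlap, although KO replicate 1 and WT replicate 1 lay close. The log2 fold change was -0.69 (SE 0.22, 95% interval -1.21 to -0.18), which did not pass over all genes (edgeR adjusted p = 0.322). In TPM the labels overlapped, at 7.44 for KO replicate 1 and 7.27 for WT replicate 1. TPM of Dnmt3a over Dnmt3b was 4.29, 6.58 and 5.01 in the libraries labelled KO, and 0.877, 0.629 and 0.520 in those labelled WT. So transcripts of Dnmt3a outnumbered those of Dnmt3b in the libraries labelled KO, and Dnmt3b was the more abundant in those labelled WT.

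Dnmt1, the maintenance enzyme (ENSMUSG00000004099, chromosome 9, 20907209 to 20959888, minus strand), was the most abundant member per length under each label. It lay at 145, 131 and 118 CPM in the libraries labelled KO and at 146, 183 and 162 CPM in those labelled WT. The labels did not overlap in CPM, by the small gap between replicate 1 of each label, and they overlapped in TPM. Its fitted difference of -0.32 on the log2 scale (SE 0.13, 95% interval -0.63 to -0.01) did not pass (edgeR adjusted p = 0.382).

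Within the 3 methyltransferases, Dnmt3a made up 38.2 ± 1.80% of the summed TPM in libraries labelled KO and 9.12 ± 1.45% in those labelled WT (mean ± SD, n = 3 each). Dnmt1 made up 54.4 ± 2.21% in libraries labelled KO and 77.1 ± 1.21% in those labelled WT. Dnmt3b made up 7.43 ± 1.45% in libraries labelled KO and 13.8 ± 1.81% in those labelled WT. The sum itself was 77.2 ± 8.92 TPM labelled KO and 64.5 ± 7.64 TPM labelled WT, with KO replicate 3 at 70.9 below WT replicate 2 at 73.2. Shares within a sum are bound to each other, so a larger Dnmt3a share lowers the other shares by itself.

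**Figure D2:**
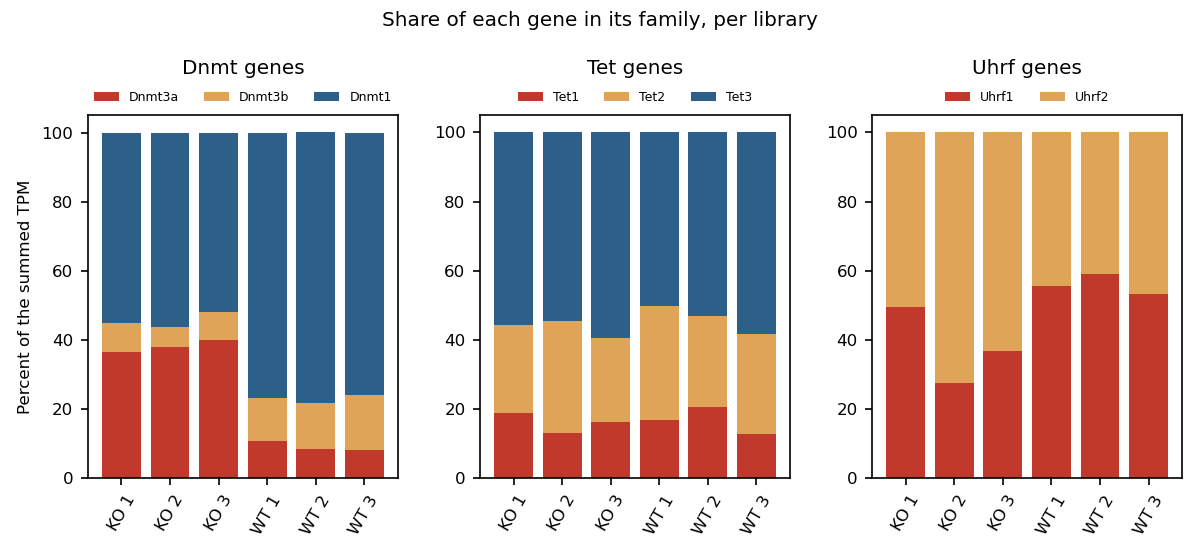
Percent of the summed TPM that each gene took within the Dnmt, Tet and Uhrf families, 1 bar per library, those labelled KO on the left and WT on the right. Dnmt3a takes 36.5 to 40.1% in libraries labelled KO and 8.22 to 10.8% in those labelled WT, while the Tet shares overlap between the labels.

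Uhrf1, which brings Dnmt1 to newly replicated DNA (ENSMUSG00000001228, chromosome 17, 56303321 to 56323486, plus strand), had 36.1, 15.2 and 26.1 CPM in the libraries labelled KO and 44.6, 54.8 and 40.4 CPM in those labelled WT. All libraries labelled KO lay below those labelled WT, with KO replicate 2 farthest down. In TPM the labels overlapped, at 19.0 for KO replicate 1 and 18.2 for WT replicate 3. The log2 fold change of -0.85 (SE 0.30, 95% interval -1.55 to -0.15) did not pass over all genes (edgeR adjusted p = 0.338). Leaving out KO replicate 2 gave -0.58, and leaving out KO replicate 1 gave -1.18, neither of them called.

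Hells (ENSMUSG00000025001, chromosome 19, 38930915 to 38971051, plus strand) lay at 15.7, 9.34 and 14.2 CPM in the libraries labelled KO and at 17.9, 25.8 and 15.6 CPM in those labelled WT. The labels overlapped, and KO replicate 2 was again the lowest library. Hells differed by a fitted log2 value of -0.60 (SE 0.27, 95% interval -1.22 to 0.03), which did not pass (edgeR adjusted p = 0.407). It was -0.36 once WT replicate 2, the highest library, was left out.

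Uhrf2, the relative of Uhrf1 that binds hydroxymethylated DNA (ENSMUSG00000024817, chromosome 19, 30030513 to 30093722, plus strand), lay at 37.4, 40 and 45 CPM in the libraries labelled KO and at 36.3, 38.2 and 35.5 CPM in those labelled WT. The labels overlapped in CPM, and in TPM they did not, at 19.4, 19.6 and 22.0 labelled KO and 17.6, 18.9 and 15.9 labelled WT. A log2 difference of 0.16 (SE 0.12, 95% interval -0.13 to 0.44) did not pass for Uhrf2 (edgeR adjusted p = 0.61), and it was 0.08 with KO replicate 3 left out. Uhrf2 over Uhrf1 in TPM was 1.02, 2.62 and 1.72 in the libraries labelled KO and 0.799, 0.697 and 0.874 in those labelled WT, above 1 in each library labelled KO and below 1 in each labelled WT.

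Members that act around replication are known to follow cell division, so their values were set beside those of dividing cells. The 10 mitosis genes summed to 523, 153 and 334 CPM in the libraries labelled KO and to 475, 662 and 488 CPM in those labelled WT. KO replicate 2 was lowest and WT replicate 2 highest, as they were for Uhrf1 and Hells. Dnmt3b was also lowest in KO replicate 2 but highest in WT replicate 3, at 25.8 CPM. Dnmt1 was highest in WT replicate 2 but lowest in KO replicate 3, at 118 CPM. KO replicate 1 had a larger mitosis sum than WT replicates 1 and 3, while its Uhrf1 value, 36.1 CPM, lay below theirs, 44.6 and 40.4 CPM. The fitted log2 fold change was below 0 for all 14 DNA replication genes (median -0.64) and for all 10 mitosis genes (median -0.69), where the median of all tested genes was 0.01. None of these 24 genes passed by edgeR over all genes. DESeq2, which called 2.16% of all genes, called the replication genes Rrm2, Gins2 and Tyms and no mitosis gene. In CPM, 7 of the 14 replication genes and 1 of the 10 mitosis genes lay lower without overlap in libraries labelled KO. Of all tested genes, 9.42% did. Top2a, the topoisomerase of dividing cells, averaged 89.9 ± 45.5 CPM in libraries labelled KO and 155 ± 26.6 CPM in those labelled WT (SD, n = 3 each). Rrm2, a ribonucleotide reductase subunit, averaged 49.2 ± 22.9 CPM labelled KO and 117 ± 22.9 CPM labelled WT. Mcm3, a subunit of the replicative helicase, averaged 87.3 ± 23.6 CPM labelled KO and 127 ± 23.0 CPM labelled WT. For Cenpf, a kinetochore protein, the averages were 54.9 ± 33.0 CPM labelled KO and 67.2 ± 13.4 CPM labelled WT. Mcm3 and Cenpf were named by their abundance and not by the size of their difference. In bulk RNA, fewer dividing cells and less RNA per cell cannot be told apart, and the part of cell division in the values of Uhrf1, Hells, Dnmt1 and Dnmt3b was not tested.

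**Figure D3:**
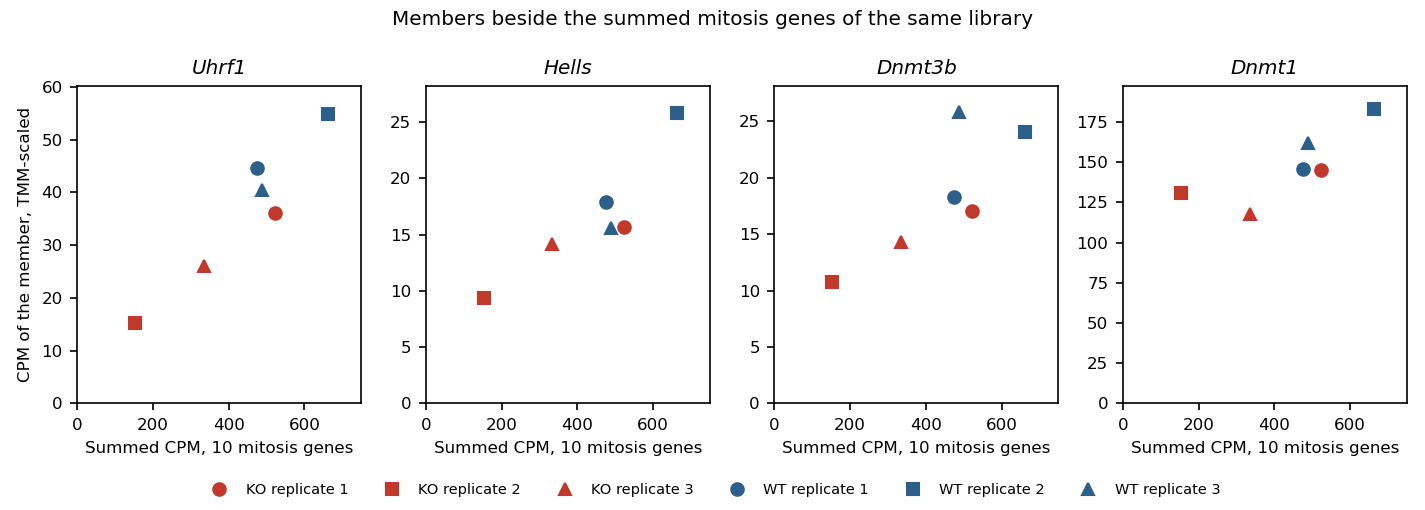
CPM of Uhrf1, Hells, Dnmt3b and Dnmt1 (vertical axis) against the summed CPM of 10 mitosis genes (horizontal axis), 1 point per library, red labelled KO and blue labelled WT. Uhrf1 and Hells are lowest in KO replicate 2, where the mitosis sum is 153 CPM, and highest in WT replicate 2, where it is 662 CPM. Dnmt3b is highest in WT replicate 3 instead, and Dnmt1 is lowest in KO replicate 3.

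Tet3, the most abundant Tet gene here (ENSMUSG00000034832, chromosome 6, 83362373 to 83459084, minus strand), lay at 175, 181 and 168 CPM in the libraries labelled KO and at 145, 143 and 117 CPM in those labelled WT. All libraries labelled KO lay above those labelled WT, in CPM and in TPM. The log2 fold change of 0.37 (SE 0.12, 95% interval 0.09 to 0.65) did not pass over all genes (edgeR adjusted p = 0.324).

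Tet2, mutations of which are known in blood clones of ageing people alongside those of DNMT3A, lies on chromosome 3 (ENSMUSG00000040943, 133463679 to 133545139, minus strand). Its level was 66.0, 89.3 and 56.8 CPM in the libraries labelled KO and 78.9, 58.6 and 48.5 CPM in those labelled WT, with overlap. For Tet2 the fitted log2 difference was 0.19 (SE 0.23, 95% interval -0.34 to 0.72, edgeR adjusted p = 0.753).

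Tet1 (ENSMUSG00000047146, chromosome 10, 62804570 to 62908996, minus strand) lay at 41.2, 30.9 and 37.8 CPM in the libraries labelled KO and at 34.3, 38.8 and 16.8 CPM in those labelled WT. The labels overlapped, and WT replicate 3 was the lowest. Its log2 difference of 0.29 (SE 0.30, 95% interval -0.41 to 0.99) did not pass (edgeR adjusted p = 0.705), and it was 0.00 without WT replicate 3. Tet1 also differed among libraries in transcript length, at 7903, 7918 and 9250 bases in the libraries labelled KO and 7846, 7877 and 7398 bases in those labelled WT. The lengths did not overlap between labels, a difference of 0.11 on the log2 scale (exact two-sided permutation test p = 0.1, the smallest possible), and 2.07% of genes differed as far. Over the same genes, 2.76% were longer without overlap in libraries labelled KO. KO replicate 3 and WT replicate 3 stand apart from the other 4 libraries, which lay between 7846 and 7918 bases.

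Within the Tet family, Tet3 made up 56.5 ± 2.57% of the summed TPM in libraries labelled KO and 53.9 ± 4.03% in those labelled WT (mean ± SD, n = 3 each). Tet2 made up 27.5 ± 4.32% labelled KO and 29.5 ± 3.23% labelled WT. The order Tet3, Tet2, Tet1 held in all 6 libraries.

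**Figure D4:**
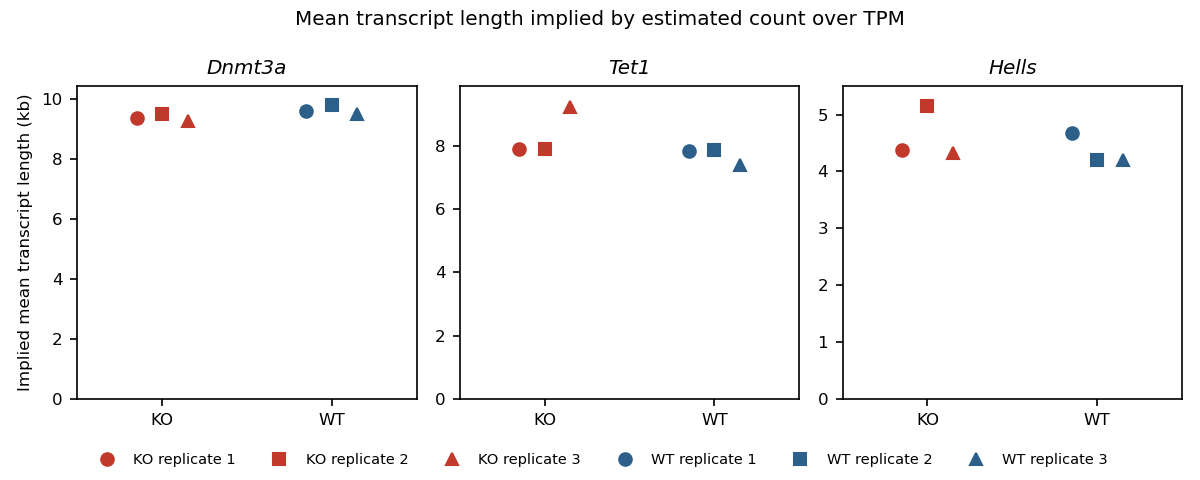
Mean transcript length in kilobases implied by the estimated count over TPM for Dnmt3a, Tet1 and Hells, 1 point per library, those labelled KO on the left of each panel. Dnmt3a lies between 9280 and 9822 bases in every library, Tet1 departs in replicate 3 of each label, and Hells is longest in KO replicate 2.

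Tdg, the glycosylase that removes the oxidised bases (ENSMUSG00000034674, chromosome 10, 82629828 to 82650799, plus strand), lay at 61.6, 34.3 and 56.3 CPM in the libraries labelled KO and at 45.9, 53.2 and 47.2 CPM in those labelled WT. KO replicate 2 was the lowest library and KO replicates 1 and 3 the highest, so the values labelled KO enclosed those labelled WT. The log2 fold change was 0.06 (SE 0.22, 95% interval -0.45 to 0.56, edgeR adjusted p = 0.931). Implied transcript length also varied for Hells, at 4379, 5143 and 4325 bases in the libraries labelled KO and 4677, 4192 and 4206 bases in those labelled WT, with overlap. For the other 7 members it differed by at most 0.0077 on the log2 scale. Of these 7, Tet2 alone had lengths without overlap, at 9215, 9214 and 9210 bases labelled KO and 9225, 9226 and 9227 bases labelled WT. Its difference was -0.0045 on the log2 scale, where 8.29% of all genes compared were shorter without overlap in libraries labelled KO. These differences are relative to the median gene; with the ratio of summed counts to summed TPM as the scale, every member shifted down together, to -0.10 for Dnmt3a, 0.06 for Tet1 and 0.03 for Hells, and below 0 for the others.

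Read together, 5 of the 10 members had an unadjusted edgeR p under 0.05 (Dnmt3a, Dnmt3b, Dnmt1, Uhrf1 and Tet3), where 12.6% of all tested genes had. That count is no test of the set. Dnmt3a is the targeted gene, and the members were chosen with earlier results of these data known. In CPM the labels did not overlap for these same 5 members, 2 higher and 3 lower in libraries labelled KO. Among all tested genes 20.3% did not overlap in CPM, 10.9% higher and 9.42% lower. In TPM 3 members did not overlap, Dnmt3a, Uhrf2 and Tet3, all higher. Among all tested genes 20.2% did not overlap in TPM, 13.8% higher and 6.37% lower, so TPM tilts the whole table towards higher values in libraries labelled KO. The 9 members other than Dnmt3a had edgeR adjusted p values of 0.322 to 0.931 and DESeq2 adjusted p values of 0.101 to 0.966. All 10 members passed the filter on low counts.

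**Figure D5:**
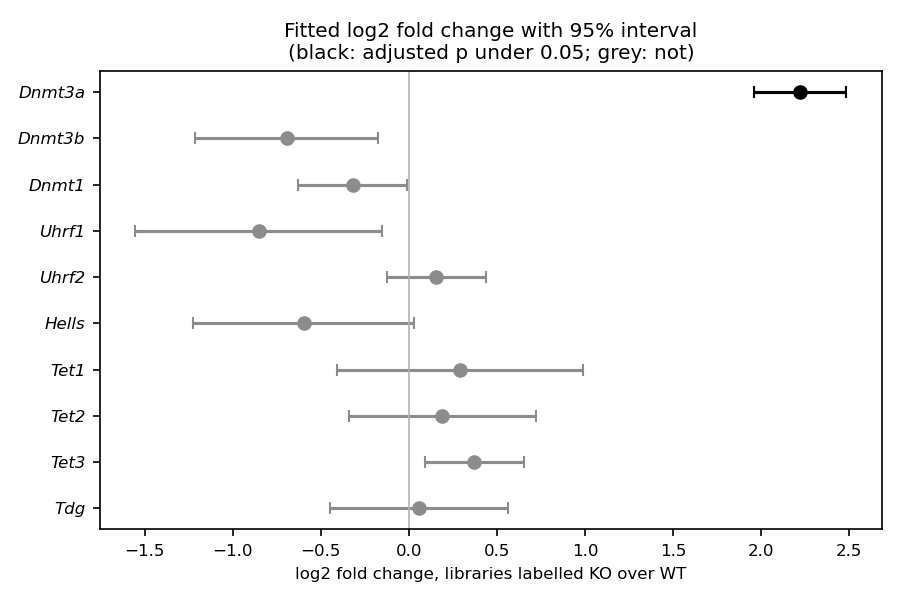
Fitted log2 fold change of each member, libraries labelled KO over those labelled WT, with its 95% interval; black marks an edgeR adjusted p under 0.05 and grey the rest. Dnmt3a at 2.22 stands alone, and the other members lie between -0.85 and 0.37.

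Per length, the order of the members differed between the labels. In libraries labelled KO, Dnmt1 at 36.8 to 48.1 TPM was followed by Dnmt3a at 27.9 to 31.9, Tdg at 19.0 to 36.1 and Tet3 at 24.6 to 27.1. Ranges of Dnmt3a and Tdg and of Tdg and Tet3 overlapped. Below them came Uhrf2 at 19.4 to 22.0, Uhrf1 at 7.47 to 19.0 and Tet2 at 10.1 to 16.0, the last pair overlapping. Tet1, Dnmt3b and Hells lay below Tet2 without overlap, and Dnmt3b overlapped both Tet1 and Hells. In libraries labelled WT, Dnmt1 at 45.5 to 57.4 TPM led, followed by Tdg at 24.0 to 29.4 and Uhrf1 at 18.2 to 27.2. Tet3 at 15.8 to 21.4 and Uhrf2 at 15.9 to 18.9 came next. From Tdg to Uhrf2 each neighbouring pair overlapped, and Uhrf2 lay above Tet2 without overlap. Tet2, Dnmt3b, Hells, Tet1 and Dnmt3a closed this order with overlapping neighbours. Dnmt3a was thus second by mean in libraries labelled KO and last of the 10 by mean, at 5.02 to 6.38 TPM, in those labelled WT.

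The genes whose profiles over the 6 libraries were most like that of Dnmt3a were Prss23, a secreted serine protease, Brd1, a bromodomain protein, and Zfp579, a zinc finger protein. Their Pearson correlations of log2 CPM with Dnmt3a were 0.9965, 0.9953 and 0.9919 over 6 libraries. Brd1 lay at 82.1, 84.8 and 82.0 CPM in the libraries labelled KO and at 62.0, 62.6 and 61.1 CPM in those labelled WT, nearly flat within each label. Its fitted log2 fold change, 0.42 (SE 0.09), did not pass (edgeR adjusted p = 0.24). Of 11647 genes searched, 68 had a correlation of at least 0.95 with Dnmt3a, a value that separation by label alone can give. For Dnmt1 the most alike were Dars, an aminoacyl-tRNA synthetase (0.9903), Cep112 (0.9876) and Ints4, an Integrator subunit (0.9854). For Uhrf1 they were Gas2l3, a cytoskeletal linker of dividing cells (0.9938), Ticrr, which acts at replication origins (0.9934), and Alg8, an enzyme of protein glycosylation (0.9931). Gas2l3 lay at 27.2, 10.5 and 20 CPM in the libraries labelled KO and at 32.3, 38.9 and 27.1 CPM in those labelled WT, with the same lowest and highest library as Uhrf1.

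The partners of the members were then counted. Of 9 tested partners of de novo methylation, 7 had a positive log2 fold change and none passed, with a median of 0.09. Nsd1, which sets the histone mark that Dnmt3a binds, averaged 260 ± 7.62 CPM in libraries labelled KO and 234 ± 15.7 CPM in those labelled WT (SD, n = 3 each). Ehmt1, a histone H3 lysine methyltransferase, averaged 151 ± 7.32 CPM labelled KO and 143 ± 1.75 CPM labelled WT. Dnmt3l, the catalytically inactive relative, was left out by the filter, with at most 0.0339 CPM in any library.

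Of 6 tested partners of maintenance methylation, 2 had a positive and 4 a negative log2 fold change, and none passed. Usp7, a deubiquitinase of Dnmt1 and Uhrf1, averaged 114 ± 19.8 CPM in libraries labelled KO and 90.6 ± 8.27 CPM in those labelled WT. Pcna, the sliding clamp of replication, averaged 73.6 ± 5.56 CPM labelled KO and 76.9 ± 1.87 CPM labelled WT, with a fitted difference of -0.06 on the log2 scale (SE 0.10).

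Of 8 tested cofactors and regulators of the Tet enzymes, 5 had a positive log2 fold change and none passed, with a median of 0.05. Ogt, a glycosyltransferase that binds Tet proteins, averaged 194 ± 30.8 CPM in libraries labelled KO and 180 ± 22.3 CPM in those labelled WT. Idh2, a mitochondrial source of the cosubstrate of Tet enzymes, averaged 119 ± 16.9 CPM labelled KO and 150 ± 15.6 CPM labelled WT.

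Of 10 tested genes of base excision repair, the log2 fold change was below 0 for 9 and none passed (median -0.23). Parp1, a sensor of strand breaks, averaged 58.3 ± 9.30 CPM in libraries labelled KO and 72.5 ± 5.44 CPM in those labelled WT. Xrcc1, a repair scaffold, averaged 49.4 ± 3.06 CPM labelled KO and 54.9 ± 9.02 CPM labelled WT.

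The Gadd45 proteins are stress-induced and have been linked to active demethylation. All 3 had a positive log2 fold change, with a median of 1.28 and none passed by edgeR. The labels did not overlap in CPM for any of the 3, where 10.9% of all tested genes lay higher without overlap. Gadd45g lay at 50.7, 133 and 59.3 CPM in the libraries labelled KO and at 21.2, 21.1 and 30.7 CPM in those labelled WT. Its log2 fold change was 1.73 (SE 0.38, edgeR adjusted p = 0.242), and DESeq2, which called 2.16% of all genes, called it (adjusted p = 0.000234). Gadd45b averaged 30.4 ± 22.0 CPM labelled KO and 12.5 ± 3.59 CPM labelled WT (SD, n = 3 each), with KO replicate 2 again far above the rest at 55.7 CPM. The gap between the labels was small for Gadd45b, with KO replicate 1 at 16.8 CPM and WT replicate 3 at 16.1 CPM.

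Of 11 tested genes of methyl donor supply, 5 had a positive and 6 a negative log2 fold change, and none passed. Mat2a, which makes S-adenosylmethionine, averaged 298 ± 46.3 CPM in libraries labelled KO and 292 ± 12 CPM in those labelled WT. Mat2b, its regulatory subunit, averaged 143 ± 37.2 CPM labelled KO and 152 ± 6.60 CPM labelled WT. Ahcy, which clears the product of the methyl transfer and was chosen after its values were seen, had no overlap, at 8.05, 7.26 and 8.84 CPM in the libraries labelled KO and 11, 13.7 and 14.8 CPM in those labelled WT. In this list 2 genes lay lower without overlap, where 9.42% of all tested genes did. The fitted log2 difference of Ahcy was -0.71 (SE 0.20), which did not pass (edgeR adjusted p = 0.293).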

How the data were processed

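RNA was measured in 6 libraries, 3 labelled KO and 3 labelled WT. The authors deposited estimated counts per gene, in whole numbers and without normalization, and TPM values per gene; the submitters' processing notes name kallisto and the build mm10. The sources used here do not state the annotation or how transcripts were summed to genes. Symbols were found for 24298 of 24520 identifiers, and coordinates and transcript lengths came from GENCODE M21. Counts were rounded, which changed 0 genes, and tested with edgeR 4.0.16 (quasi-likelihood, TMM factors, filterByExpr, no covariate, R 4.3.3), with Benjamini-Hochberg adjustment over 14667 genes at 0.05. A standard error is the log2 fold change divided by the square root of F. Alternatives were DESeq2 1.42.0, limma 3.58.1 on log2(TPM + 1) and log2(TPM + 0.1), other scalings, filters and covariates, and leaving out libraries. The fit was tested on simulated data.

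Mean transcript length came from the count over TPM, placed on a straight line of ratio against annotated length, fitted per library over 815 genes with 1 transcript of 1000 to 10000 bases; 67.1% to 68.0% of them lay within 5% of the line. Replicates of a label differed beyond sampling noise (chi-square over its degrees of freedom, 47.3 to 105), and each was taken as 1 sample. A count of 3, the floor, is 0.075 to 0.107 CPM; floors cover counting error only, since amplified reads carry no molecular identifiers. Reads of antisense partners are not told apart here.

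The members and lists were chosen with earlier results of these data known. Named are all members and, per list, the genes past the threshold or else the 2 most abundant (marker lists of cell types without a called gene are given by their sums); for Dnmt3a, Dnmt1 and Uhrf1 also the 3 most correlated genes whose mean count reached 50. Dcn, Ahcy and the genes named from DESeq2 were chosen after their values were seen.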

Additional observations from a re-analysis of the deposited data

How the results depend on the processing

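Dnmt3a was called in each fit without 1 library (log2 fold change 2.15 to 2.26, edgeR adjusted p = 0.00991 to 0.0344). With the replicate number as a block its log2 fold change was 2.23 (adjusted p = 0.0679), and edgeR called 0 genes and 0 members, with 1472 genes at an unadjusted p under 0.05. Same-numbered libraries deviated together for replicate 1 (correlation 0.282) but not for 2 (-0.048) or 3 (-0.18). The unlike-numbered KO replicate 3 and WT replicate 2 reached 0.358. Such values cannot decide whether the numbers pair libraries beyond the sex that same-numbered libraries share. In male libraries only, Dnmt3a stood at 2.22 (adjusted p = 0.168), with 0 genes and 0 members called and 1572 genes at an unadjusted p under 0.05; that fit has 2 libraries a label. The 5 genes called overall became 407 by DESeq2, 2 with sex as a covariate, 3 by limma on log2(TPM + 1), 1 on log2(TPM + 0.1), and 1 to 4 without single libraries; without WT replicate 1 or WT replicate 3 it was 1, without KO replicate 3 it was 2 and without KO replicate 1 it was 3. No other member was called in any of the 17 alternatives. Signs turned for Tet2 without KO replicate 2 (-0.01, with 0.39 the highest without any single library), and for Tdg in male libraries only (-0.16), without KO replicate 1 (-0.11) and without KO replicate 3 (-0.02; highest 0.27), none of them called. Scaling implied length by the ratio of sums gave Dnmt3a -0.0978 in place of -0.0434, part of a downward shift of all members together. The cause of these differences was not tested.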
